A study of Mus musculus with 6 samples.

Results

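Transcript levels of 32 genes of fatty acid oxidation and ketone body synthesis were compared between livers of mice lacking AEG-1 in hepatocytes and livers of control mice. The members were chosen as the rows of the count table whose gene identifiers carry the 32 listed symbols in GENCODE vM21, and all 32 were found among the 46983 rows. The knockout mice, written AEG-1DHEP in the series text, carried a deletion of AEG-1 (astrocyte elevated gene 1, encoded by Mtdh) in hepatocytes. The controls are AEG-1fl/fl in the series text, which is the conditional allele without the deletion, and wild type (WT) in the sample titles. All mice were 12 weeks old, on a C57BL/6 background, chow-fed and untreated, and RNA came from whole liver. What drove the deletion in hepatocytes is not given in the sources used here. The labels list 3 biological replicates per group from separate mice. Control replicates 1 and 2 held the same count in each of the 46983 rows. Since no row differed between them, they count here as 1 sample, called control replicate 1. The comparison was therefore 3 knockout libraries against 2 distinct control libraries.

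Fatty acid oxidation shortens fatty acids by pairs of carbons to acetyl-CoA. Long chains are activated to acyl-CoA, pass into mitochondria on carnitine, and go through repeated rounds of dehydrogenation, hydration, dehydrogenation and thiolysis. The first dehydrogenation passes its electrons to the respiratory chain through electron-transferring flavoprotein. Peroxisomes run a parallel route for very long, branched and dicarboxylic chains. The fasting liver turns much of the acetyl-CoA into ketone bodies for other organs, and the nuclear receptor PPAR-alpha is known for driving genes of both routes.

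Library totals ran from 29557477 to 33685670 counts, and levels are given as CPM, counts scaled to a common library size with TMM factors (trimmed mean of M values). Mtdh had 2.90, 2.23 and 2.37 CPM in knockout replicates 1 to 3 and 48.0 and 54.6 CPM in control replicates 1 and 3, a log2 difference of -4.36 (SE 0.15) with an adjusted p of 0.000564 in edgeR's quasi-likelihood test, so each library went with its label. The defining hepatocyte transcripts were abundant, with summed levels of 6 markers between 67072 and 97198 CPM. Skeletal muscle markers stood out in 1 library: their sum over 7 genes was 46.8 CPM in knockout replicate 1 and at most 1.22 CPM in the other libraries. Markers of endothelial and stellate cells lay below 0 in log2 fold change for 6 of 6 genes each, and erythroid markers for 5 of 5, with 0 past the test. Of all tested genes, 52.1% lay above 0. The summed levels overlapped between the groups for each of these lists. Endothelial sums were 170, 131 and 120 CPM in knockout replicates 1 to 3 and 161 and 199 CPM in control replicates 1 and 3. Stellate sums were 251, 206 and 172 CPM against 232 and 246 CPM, and erythroid sums 469, 543 and 424 CPM against 674 and 503 CPM. In whole liver RNA, fewer cells of a type and less RNA per cell cannot be told apart.

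Most of the 32 members had a somewhat higher level in the knockout livers, but none passed the test. All 32 had enough counts to be tested. The log2 fold change was above 0 for 29 and below 0 for Etfa, Etfb and Ucp2, where 52.1% of all tested genes lay above 0. The median log2 fold change of the members was 0.16, against 0.01 over the 16441 genes tested. The members were chosen with earlier results of these data known, so these comparisons with all tested genes are a description only. No member passed edgeR's test in either direction at an adjusted p of 0.05, a threshold that 0 of all tested genes (0%) passed as higher and 1, Mtdh (0.00608%), as lower. DESeq2, which called 19 genes in all (0.116%), and limma-voom, which called 1 (0.00608%), also called 0 members. At an unadjusted p under 0.05 in edgeR's test, 2 members were higher, Decr2 and Aldh3a2, and 0 were lower. Of the 16441 tested genes, 268 (1.63%) were higher and 296 lower at that level. The 95% interval of the difference stayed within 1 log2 unit of 0, that is within a doubling or a halving, for 26 members. The same held for 12295 of the 16441 tested genes. Among the members, the interval reached further for Crat, Acaa1a, Acaa1b, Pex11a, Aldh3a2 and Vnn1.

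**Figure D1:**
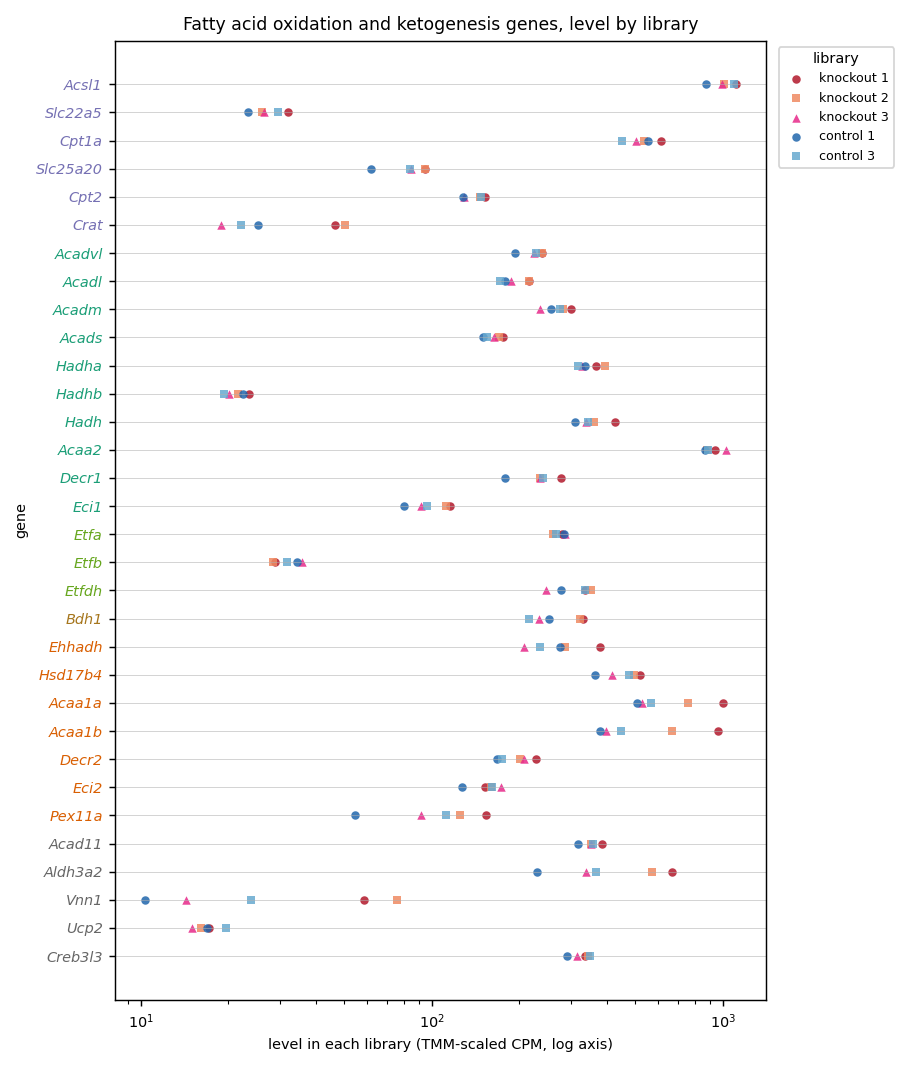
Level of each of the 32 genes in every distinct library, as TMM-scaled CPM on a log axis, with gene names coloured by role. Most genes have their libraries close together, while Vnn1, Crat, Aldh3a2, Acaa1a and Acaa1b have knockout replicates 1 and 2 to the right of the other 3 libraries.

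**Figure D2:**
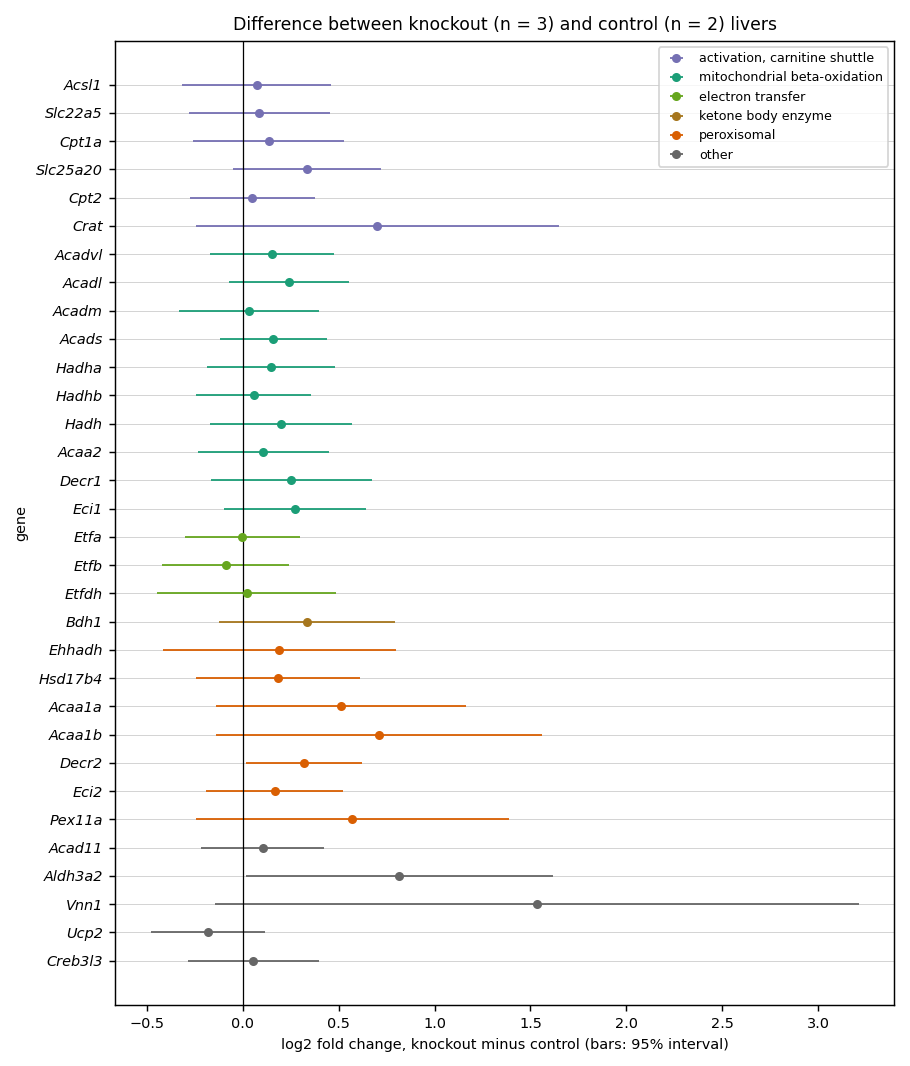
Log2 fold change of each gene, knockout minus control, from edgeR's quasi-likelihood fit, with its 95% interval and coloured by role. Of the 32 points, 29 lie above 0, and the intervals of Decr2 and Aldh3a2 are those that leave out 0.

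The 18 mitochondrial members, which are the carnitine shuttle enzymes, the matrix enzymes, the electron transfer proteins and Bdh1, had a median log2 fold change of 0.15, with 16 above 0. The 7 peroxisomal members had a median of 0.32, with 7 above 0. Neither median was tested, nor was the difference between them. The other 7 members, Acsl1, Slc22a5, Acad11, Aldh3a2, Vnn1, Ucp2 and Creb3l3, were placed in neither group and had a median of 0.09 with 6 above 0. Ucp2, at -0.18, is a protein of the inner mitochondrial membrane but was not counted among the 18 mitochondrial members.

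Most transcripts for fatty acid activation and the carnitine shuttle differed little between the groups. Slc25a20 was higher in every knockout library than in either control library, and Crat varied widely among the knockout livers. Acsl1, the long-chain acyl-CoA synthetase that activates fatty acids in liver, had 1113, 1009 and 990.5 CPM in knockout replicates 1 to 3 and 876 and 1096 CPM in control replicates 1 and 3. The groups overlapped in part, with control replicate 1 the lowest library, and the log2 fold change was 0.07 (SE 0.16). Cpt1a, the carnitine palmitoyltransferase of the outer membrane and the controlled step of the route, had 612, 535 and 501 CPM in the knockout livers against 552 and 449 CPM in the control livers. Its log2 fold change of 0.13 (SE 0.16) had an interval of -0.26 to 0.53. Cpt2, its partner on the inner membrane, differed by 0.05 (SE 0.14) on the log2 scale, and Slc22a5, the carnitine importer of the plasma membrane, by 0.09 (SE 0.15).

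Slc25a20, the carnitine-acylcarnitine carrier of the inner membrane, had 95.04, 94.8 and 84.7 CPM in knockout replicates 1 to 3 and 61.5 and 83.8 CPM in control replicates 1 and 3. Every knockout library was above every control library, the closest pair being knockout replicate 3 and control replicate 3. The log2 fold change was 0.33 (SE 0.16), and it was 0.12 without control replicate 1 and 0.57 without control replicate 3. Crat, the carnitine acetyltransferase that moves short acyl groups between CoA and carnitine (ENSMUSG00000026853, chromosome 2, 30400471 to 30415813, minus strand; all gene positions are from the count table, on GRCm38), had 46.5, 50.3 and 18.8 CPM in knockout replicates 1 to 3 and 25.3 and 22.1 CPM in control replicates 1 and 3. Knockout replicates 1 and 2 were high, while knockout replicate 3 was the lowest library of all. The log2 fold change of Crat, 0.70 (SE 0.40), therefore had a wide interval, -0.25 to 1.65, and was 1.03 without knockout replicate 3 and 0.46 without knockout replicate 2.

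The matrix enzymes of mitochondrial beta-oxidation showed small differences in 1 direction. All 10 had a log2 fold change above 0, from 0.03 for Acadm to 0.27 for Eci1, with a median of 0.15 and 0 of 10 past the test. Each of the 10 intervals lay within 1 of 0. Among the acyl-CoA dehydrogenases, which carry out the first step at different chain lengths, Acadl for long chains had 216, 215 and 187 CPM in knockout replicates 1 to 3 and 178 and 171 CPM in control replicates 1 and 3. Acads for short chains had 175, 170.0 and 164 CPM in the knockout livers against 149.6 and 154 CPM in the control livers. In both genes every knockout library was above every control library, by margins that were small beside the spread within the knockout group for Acadl, and the log2 fold changes were 0.24 (SE 0.13) and 0.16 (SE 0.12).

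Acadvl, the very-long-chain dehydrogenase, had 238, 239 and 224 CPM in the knockout livers against 193 and 229 CPM in the control livers, and control replicate 1 alone was low. Acadm, the medium-chain enzyme, had 301, 281 and 235 CPM in the knockout livers against 257 and 276 CPM in the control livers. Its knockout libraries lay on both sides of the controls, and its log2 fold change was 0.03 (SE 0.15). The later steps were alike in size: Hadh, the 3-hydroxyacyl-CoA dehydrogenase for shorter chains, differed by 0.20 (SE 0.15) on the log2 scale, and Acaa2, the mitochondrial thiolase, by 0.11 (SE 0.14). Acaa2 was the most abundant member per length, at 608 ± 41.8 RPKM (CPM per kilobase of exon, mean ± SD over the 5 distinct libraries). Decr1 and Eci1, which prepare unsaturated fatty acids for the cycle, had log2 fold changes of 0.25 (SE 0.17) and 0.27 (SE 0.15). In both genes control replicate 1 was the lowest library.

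The trifunctional protein, which carries out the last 3 steps for long chains, is built from equal numbers of alpha and beta subunits, encoded by Hadha and Hadhb. Hadha had 365, 393 and 327 CPM in the knockout livers against 336 and 318 CPM in the control livers and a log2 fold change of 0.15 (SE 0.14). Hadhb (ENSMUSG00000059447, chromosome 5, 30155248 to 30184593, plus strand) had 23.5, 21.5 and 20.1 CPM in the knockout livers against 22.4 and 19.3 CPM in the control livers, with a log2 fold change of 0.06 (SE 0.13). Per length, Hadha was at 39.8 ± 3.52 RPKM and Hadhb at 3.24 ± 0.254 RPKM over the 5 libraries. The length used is that of all annotated exons, 8730 bases for Hadha and 6595 for Hadhb. The longest protein-coding transcript of Hadhb has 2048 bases, so its RPKM may be understated, and per-length levels of different genes compare only roughly. The counts of Hadhb are uncertain, because the whole coding sequence, positions 120 to 1547 of the Hadhb transcript, has a near-identical copy in the processed pseudogene Gm13910 on chromosome 2 (108948806 to 108950233). The pair differed at 3 of 1428 bases, G320A, A512G and G862A, with positions counted from the 5′ end of the transcript and the Hadhb base first. The longest stretch without a difference was 685 bases. The following 120 bases, positions 260 to 379 in GENCODE vM21, are shown because they hold the first of the 3 differences, in capitals.
Hadhb: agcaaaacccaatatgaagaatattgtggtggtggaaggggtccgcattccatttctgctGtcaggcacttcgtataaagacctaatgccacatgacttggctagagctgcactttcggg
Gm13910: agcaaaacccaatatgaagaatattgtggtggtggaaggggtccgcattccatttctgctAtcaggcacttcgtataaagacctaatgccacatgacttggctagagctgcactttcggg

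Gm13910, at 92.6 ± 6.74 RPKM over its 1428 bases of exon, held more counts than Hadhb itself in every library. It had 4471, 4478 and 3831 counts in the knockout libraries and 4248 and 3751 in the control libraries. Summed over the pair, the level was 169, 157 and 139.8 CPM in the knockout livers and 156 and 146 CPM in the control livers. The log2 fold change of the sum was 0.04 (SE 0.13), again with overlapping groups. In all, 12 of the 32 members matched a transcript of another gene at 90% identity or more over at least 200 bases, including genes that overlap them. Slc22a5 summed with its relative Slc22a21 gave a log2 fold change of 0.07 and Etfa summed with the pseudogene Gm15289 one of -0.01. Another pseudogene, Gm15285, matched 34.9% of the Etfa transcript at 93.42% identity and had 1093 to 1400 counts per library. It was not summed with Etfa, nor was Eci3 with Eci2. How reads with several matches were counted is not given in the sources used here, so reads of Hadhb and Gm13910 cannot be told apart in this table.

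**Figure D3:**
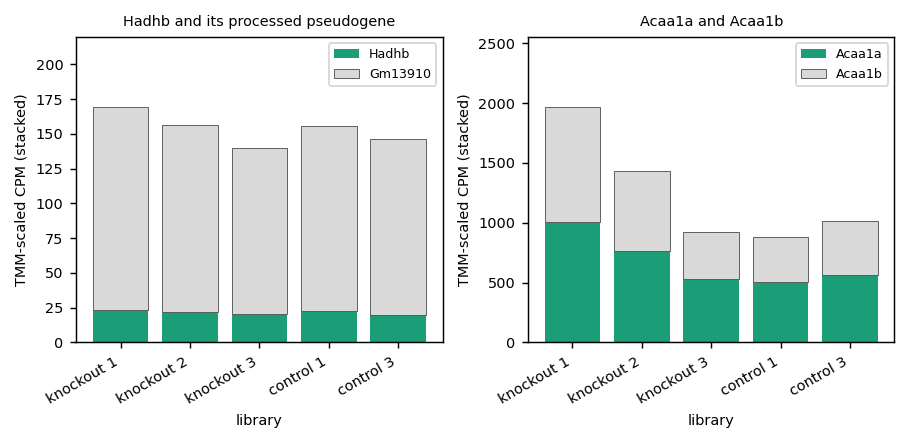
Stacked TMM-scaled CPM per library of Hadhb with its processed pseudogene Gm13910 (left) and of Acaa1a with Acaa1b (right). Gm13910 makes up most of the left bars in each library, and the right bars are tallest in knockout replicates 1 and 2.

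Genes for the transfer of electrons from the acyl-CoA dehydrogenases differed little between the groups, with 1 of 3 above 0 and 0 past the test. Etfa, the alpha subunit of electron-transferring flavoprotein, had 279, 262 and 286 CPM in knockout replicates 1 to 3 and 285 and 268 CPM in control replicates 1 and 3, a log2 fold change of -0.0025 (SE 0.13). Etfb, the beta subunit, had 28.8, 28.4 and 35.9 CPM in the knockout livers against 34.4 and 31.7 CPM in the control livers, and here knockout replicate 3 was the highest library and the other knockout libraries the lowest. Its log2 fold change was -0.09 (SE 0.14). Most of the Etfb transcript, 70.1%, is also part of the overlapping transcript Gm45233, listed at 0 counts in every library, and the counting of reads in shared exons is not given in the sources used here. Etfdh, which hands the electrons to ubiquinone, had 336, 351 and 246 CPM in the knockout livers against 278 and 336 CPM in the control livers. Here knockout replicate 3 was the lowest library, and the log2 fold change was 0.02 (SE 0.20) with an interval of -0.45 to 0.49.

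Bdh1, the mitochondrial enzyme that reduces acetoacetate to the ketone body beta-hydroxybutyrate (ENSMUSG00000046598, chromosome 16, 31422280 to 31458901, plus strand), had 331, 322 and 234 CPM in knockout replicates 1 to 3 and 252 and 216 CPM in control replicates 1 and 3. Knockout replicates 1 and 2 were above both controls, and knockout replicate 3 lay between them. The log2 fold change of 0.33 (SE 0.19) did not pass, with an interval of -0.12 to 0.79. Among 10 further genes of ketone body metabolism, 9 had enough counts to be tested, 7 had a log2 fold change above 0 and 0 passed. Their median log2 fold change was 0.23. The 3 with the smallest unadjusted p are named here. Slc16a7, a monocarboxylate transporter that can carry ketone bodies, had 54.3, 39.3 and 43.2 CPM in knockout replicates 1 to 3 and 28.7 and 28.6 CPM in control replicates 1 and 3, with a log2 fold change of 0.67 (SE 0.16). Its groups did not overlap, though its adjusted p in the edgeR test was 1.00. Aacs, which activates acetoacetate in the cytosol, differed by 0.46 (SE 0.26) on the log2 scale, and Oxct1, which consumes ketone bodies in other organs, had at most 6.94 CPM in any library and a log2 fold change of -0.44 (SE 0.25).

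The peroxisomal enzymes included the largest differences among the enzymes of beta-oxidation, and those differences were carried by knockout replicates 1 and 2. Acaa1b, a peroxisomal thiolase that carries out the last step of the cycle (ENSMUSG00000010651, chromosome 9, 119148023 to 119157093, minus strand), had 963, 670.0 and 395 CPM in knockout replicates 1 to 3 and 379 and 447 CPM in control replicates 1 and 3. Acaa1a, its close relative (ENSMUSG00000036138, chromosome 9, 119339676 to 119350299, plus strand), had 1003, 762 and 526 CPM in the knockout livers against 505 and 566 CPM in the control livers. In both genes knockout replicates 1 and 2 were above the controls and knockout replicate 3 lay among them. The log2 fold changes were 0.71 (SE 0.35) and 0.51 (SE 0.27), with intervals of -0.14 to 1.56 and -0.14 to 1.16. Without knockout replicate 1 they were 0.37 and 0.27, and without knockout replicate 3 they were 0.98 and 0.72.

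The 2 thiolase transcripts matched over 1428 bases with 96.64% identity and 48 differences, and the longest stretch without a difference was 327 bases. Reads could have been split between them, so their common pattern over the libraries is not independent. Summed over the pair, the level was 1965, 1432 and 921 CPM in the knockout livers and 885 and 1013 CPM in the control livers, which gave a log2 difference of 0.60 (SE 0.31). The following 120 bases, positions 246 to 365 of the Acaa1a transcript and the matching stretch of Acaa1b in GENCODE vM21, lie in the coding sequence and show 6 of the 48 differences, in capitals.
Acaa1a: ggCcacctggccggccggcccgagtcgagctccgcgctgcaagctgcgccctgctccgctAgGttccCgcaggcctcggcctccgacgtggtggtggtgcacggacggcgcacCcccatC
Acaa1b: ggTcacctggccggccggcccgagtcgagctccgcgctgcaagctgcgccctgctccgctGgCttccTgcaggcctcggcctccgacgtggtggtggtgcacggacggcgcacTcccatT

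Ehhadh and Hsd17b4 encode the bifunctional enzymes of the peroxisomal cycle, which carry out its middle steps. Ehhadh had 379, 288 and 207 CPM in knockout replicates 1 to 3 and 275 and 236 CPM in control replicates 1 and 3. Its knockout libraries spanned the whole range, from the highest library to the lowest, and the log2 fold change was 0.19 (SE 0.25), or -0.0448 without knockout replicate 1. Hsd17b4 had 519, 494 and 415 CPM in the knockout livers against 365 and 474 CPM in the control livers, with overlapping groups and a log2 fold change of 0.18 (SE 0.18). Decr2, the peroxisomal dienoyl-CoA reductase for unsaturated chains (ENSMUSG00000036775, chromosome 17, 26081211 to 26090329, minus strand), had 229, 201 and 207 CPM in knockout replicates 1 to 3 and 167 and 174 CPM in control replicates 1 and 3. It was the peroxisomal member in which every knockout library was above every control library, and its log2 fold change of 0.32 (SE 0.13) ranged from 0.26 to 0.35 when each library was left out in turn. Its unadjusted p was 0.0425 and its adjusted p in the edgeR test 1.00. Eci2, an enoyl-CoA isomerase, had a log2 fold change of 0.17 (SE 0.15), with knockout replicate 3 as its highest library. Pex11a, a membrane protein that promotes peroxisome division (ENSMUSG00000030545, chromosome 7, 79735957 to 79743131, minus strand), had 153, 125 and 91.9 CPM in knockout replicates 1 to 3 and 54.3 and 112 CPM in control replicates 1 and 3. The controls differed from each other by more than did knockout replicate 1 from knockout replicate 2, and the log2 fold change of 0.57 (SE 0.34) was 0.14 without control replicate 1 and 1.18 without control replicate 3.

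Of 18 further genes of peroxisomal lipid oxidation, 12 had a log2 fold change above 0, the median was 0.07 and 0 passed. The 3 with the smallest unadjusted p were Abcd3, a peroxisomal fatty acid transporter, with 0.31 (SE 0.17), the isomerase Eci3 with 0.21 (SE 0.12), and Acox2, an oxidase for bile acid intermediates and branched chains, with -0.38 (SE 0.23). Acox2 had 175, 208 and 119 CPM in the knockout livers against 223 and 213 CPM in the control livers, so that every knockout library was below the controls. Of 15 peroxisome biogenesis genes, 11 were above 0, with a median of 0.10 and 0 past the test. Among them, Pex19, which brings membrane proteins to peroxisomes, had a log2 fold change of 0.24 (SE 0.13), while Pex10, a ubiquitin ligase of the peroxisomal import machinery, differed by 0.22 (SE 0.18) on the log2 scale.

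The widest differences of all were in 2 genes outside the beta-oxidation cycle. Vnn1, a pantetheinase that breaks down a product of coenzyme A degradation (ENSMUSG00000037440, chromosome 10, 23894688 to 23905343, plus strand), had 58.2, 75.9 and 14.2 CPM in knockout replicates 1 to 3 and 10.3 and 23.8 CPM in control replicates 1 and 3. Knockout replicates 1 and 2 were above both controls, and knockout replicate 3 lay between the controls. Its log2 fold change was 1.53 (SE 0.70) with an interval of -0.14 to 3.21, and it ran from 1.05 without control replicate 1 to 2.26 without control replicate 3. Aldh3a2, the fatty aldehyde dehydrogenase (ENSMUSG00000010025, chromosome 11, 61223417 to 61267464, minus strand), had 666, 569.6 and 339 CPM in knockout replicates 1 to 3 and 229 and 367 CPM in control replicates 1 and 3. The libraries stood in the same order as for Acaa1b, with knockout replicate 3 between the controls. The log2 fold change of 0.82 (SE 0.33) had an unadjusted p of 0.0465 and an adjusted p of 1.00 in the edgeR test, and it was 0.51 without control replicate 1 and 1.20 without control replicate 3.

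The remaining members differed little. Ucp2, an uncoupling protein of the inner mitochondrial membrane and a gene that immune cells also express, had 17.2, 16.1 and 15.0 CPM in the knockout livers against 16.9 and 19.6 CPM in the control livers, with a log2 fold change of -0.18 (SE 0.12). Per length it had the lowest level of the members, at 2.43 ± 0.242 RPKM. Its level is given beside 6 Kupffer cell and macrophage markers, of which 5 had a log2 fold change below 0. Their summed level was 189, 152 and 155 CPM in the knockout livers and 164 and 211 CPM in those of the controls, and their part in the Ucp2 values was not tested. Creb3l3, a membrane-bound transcription factor of the endoplasmic reticulum that works with PPAR-alpha in fasting, had 337, 345 and 315 CPM in the knockout livers against 291 and 349 CPM in the control livers and a log2 fold change of 0.05 (SE 0.14). Acad11, a dehydrogenase for long and hydroxylated chains, had one of 0.10 (SE 0.13).

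The members shared a pattern over the libraries that did not follow the groups alone. Knockout replicate 1 had the highest level of the 5 libraries in 21 of the 32 genes, which it had in 15.1% of all tested genes. Control replicate 1 had the lowest in 20, against 21.2% of all tested genes. Within the knockout group, knockout replicate 3 was the lowest library for 25 of 32 members, against 36.3% of all tested genes. Knockout replicates 1 and 2 both exceeded both controls in 19 members, against 16.2% of all tested genes, and knockout replicate 3 did not exceed the higher control in 24, or 75.0%, near the 66.4% of all tested genes. The genes of the table are not independent of each other, and these shares were not tested. Relative to each gene's mean, the median member was at 0.18, 0.07 and -0.08 log2 units in knockout replicates 1 to 3 and at -0.18 and -0.04 in control replicates 1 and 3. For the 7 peroxisomal members the same values were 0.48, 0.14 and -0.14, and -0.30 and -0.16, so knockout replicate 3 lay close to control replicate 3 and the other knockout libraries above it.

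**Figure D4:**
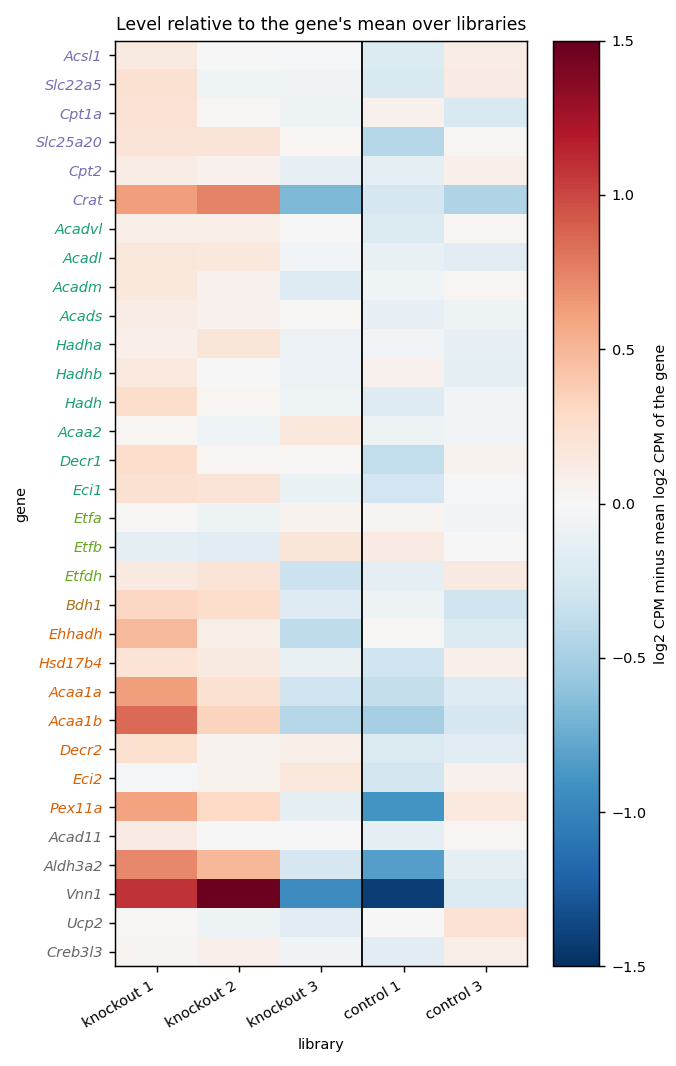
Level of each gene in each distinct library as log2 CPM minus the gene's mean over the 5 libraries, knockout libraries left of the line and control libraries right of it. The column of knockout replicate 1 is mostly red, that of control replicate 1 mostly blue, and knockout replicate 3 resembles the controls in Crat, Acaa1a, Acaa1b, Bdh1 and Vnn1.

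Every knockout library was above every control library in 4 of the 32 members, Slc25a20, Acadl, Acads and Decr2, where 8.16% of all tested genes had this order. The reverse order was found in 0 members and in 8.72% of all tested genes. The count was 19 without knockout replicate 3 (16.1% of all genes tested in that comparison), 8 without control replicate 1 (23.5%) and 21 without control replicate 3 (24.9%). It was 4 without knockout replicate 1 (12.9%), the library with the muscle transcripts, and 5 without knockout replicate 2 (16.3%). The number of members above 0, which was 29 with all libraries, was 24 without knockout replicate 1 (53.2% of all tested genes) and 24 without control replicate 1 (53.1%). Leaving out knockout replicate 2 gave 29 (50.5%), leaving out knockout replicate 3 gave 29 (50.1%), and leaving out control replicate 3 gave 27 (51.3%). The median log2 fold change of the members without knockout replicate 1 was 0.13. For the peroxisomal members that median was 0.26.

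The summed level of adipocyte markers was also higher in knockout replicates 1 and 2 than in the other libraries. Of 8 markers, 4 had enough counts to be tested, and 3 of these, Plin4, Cidea and Cfd (Plin4 and Cidea are also known from fat-laden hepatocytes), had a log2 fold change above 0, with 0 past the test. Fabp4, the fourth, had a log2 fold change of -0.06, and its level in knockout replicate 2, 6.03 CPM, was below the 6.31 CPM of control replicate 1. The sum of the 8 was 23.9, 31.8 and 11.4 CPM in knockout replicates 1 to 3 and 12.3 and 14.0 CPM in control replicates 1 and 3. The defining markers Adipoq, Lep, Plin1 and Ucp1 had at most 1 count in any library. Without knockout replicate 1, the library with the high muscle markers, the log2 fold changes of Vnn1, Crat and Aldh3a2 were 1.401, 0.54 and 0.61. The part of adipocyte or muscle transcripts in these values was not tested.

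**Figure D5:**
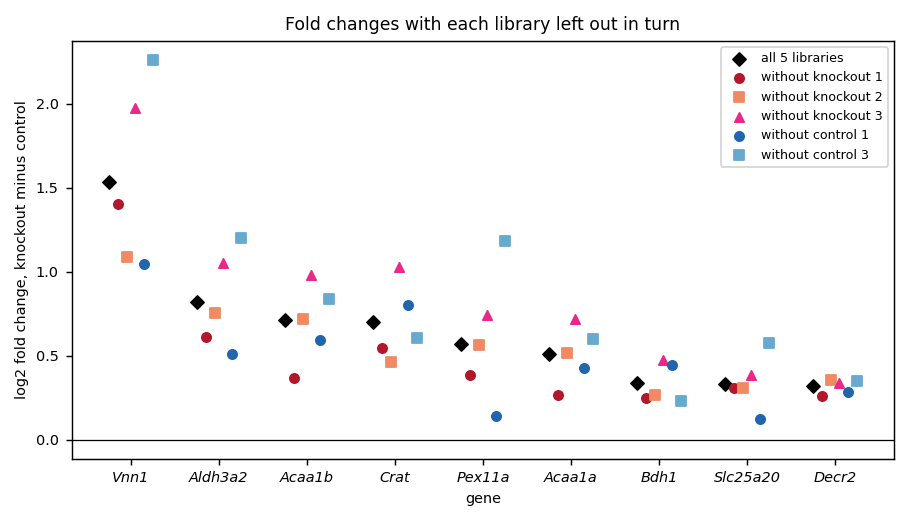
Log2 fold change, knockout minus control, of 9 members with all 5 distinct libraries (black) and with each library left out in turn. The points of Vnn1 spread from 1.05 to 2.26 and those of Pex11a from 0.14 to 1.18, while those of Decr2 stay between 0.26 and 0.35.

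Other genes of the pathway also stayed below the threshold. Of 25 other genes of mitochondrial acyl-CoA handling, 24 were tested, 15 had a log2 fold change above 0, the median was 0.06 and 0 passed. The smallest unadjusted p belonged to Acacb, the acetyl-CoA carboxylase whose product malonyl-CoA inhibits Cpt1a, with 149, 187 and 108 CPM in the knockout livers against 76.3 and 73.8 CPM in the control livers and a log2 fold change of 0.98 (SE 0.23). Acot13 and Acot2, thioesterases that release fatty acids from CoA, followed with 0.47 (SE 0.16) and 0.91 (SE 0.37). Of 14 regulators of fatty acid oxidation, 11 were above 0, the median was 0.22 and 0 passed. Their log2 fold changes ran from -0.61 to 1.31, and the 3 genes named next are those with the smallest unadjusted p. Ppargc1a, the coactivator PGC-1alpha, had 11.7, 11.2 and 9.66 CPM in the knockout livers against 8.67 and 6.54 CPM in the control livers, which gave a log2 difference of 0.51 (SE 0.18). Ppargc1b, its relative, had 6.32, 5.55 and 6.06 CPM in the knockout livers against 11.6 and 6.54 CPM in the control livers and a difference of -0.61 (SE 0.25), so the pair had opposite signs without overlap between the groups. The controls of Ppargc1b lay far apart, and its difference was -0.13 without control replicate 1 and -0.96 without control replicate 3. Pparg, a receptor related to PPAR-alpha, had 19.7, 15.4 and 6.91 CPM in the knockout livers against 7.35 and 7.28 CPM in the control livers, again with knockout replicate 3 at the level of the controls, and a log2 fold change of 0.94 (SE 0.41).

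Promoter sequences were searched for the element that PPAR-alpha binds with its partner RXR, a direct repeat of 2 copies of AGGTCA with 1 free base between them, on both strands. RefSeq windows of 250 bases before to 50 after the start (GRCm38.p6) were found for 27 of the 32 members, 30 windows in all. The exact repeat was in 0 of the 30 windows and in 0.0396% of the 32851 windows of the table. With up to 2 mismatches among its 12 fixed bases it was in 3 of the 30 member windows and in 3.86% of all windows. A single copy of AGGTCA, which is part of the repeat, was in 4 member windows and in 16.3% of all windows. The 3 matches are shown on the strand of the gene, with the match in capitals and 8 bases on each side. They lie at chr10:81092788-81092800 for 1 of the 2 Creb3l3 windows, chr9:55512308-55512320 for Etfa, where the repeat is on the opposite strand, and chr9:108662142-108662154 for Slc25a20, just after the start. A match of these letters is a description and not evidence of binding. The windows of Acaa1a and Acaa1b held no match with up to 2 mismatches and no single AGGTCA, and Vnn1 and Crat were not among the windows searched. Sites outside these short windows were not searched, so a missing match is likewise a description only.
Creb3l3: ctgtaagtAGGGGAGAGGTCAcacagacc
Etfa: gcacacccTTACCTTTGCCCTactcccaa
Slc25a20: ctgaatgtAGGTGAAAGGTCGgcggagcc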

How the data were processed

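Per the labels' protocols, RNA from 6 livers was prepared with an Illumina TruSeq kit and run on a HiSeq2500 instrument. The authors deposited 1 table of raw read counts per gene, named per the file headers by Ensembl identifier, exon coordinates, strand and exon length. Counting with featureCounts 1.4.6-p4 and Subread 1.4.6-p4, trimming with Trimmomatic 0.33, and FastQC are named in the submitters' processing notes, as are the builds mm10 and GRCm38. The sources used here do not give the annotation release, the strand setting or the handling of reads with several matches, so near-identical and overlapping genes are uncertain. Of the 46983 identifiers, 46488 had a symbol in GENCODE vM21.

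Control replicate 2 was left out because its column equals that of replicate 1. Differences were tested in both directions with edgeR's quasi-likelihood model after filterByExpr (16441 genes kept) and TMM scaling, with Benjamini-Hochberg adjustment over all kept genes and a threshold of 0.05. SE and 95% intervals were derived from the F statistic. The test was also run on simulated counts drawn independently for each gene, and the outcome is not reported here. Alternatives were RLE and upper-quartile scaling, no low-count filter, DESeq2, limma-voom, each library left out, all 6 columns, the replicate number as a block, and near-identical copies summed. Copies were found with BLAST+ 2.17.0 (at least 90% identity over 200 bases). A count of 3 corresponds to 0.0905 to 0.102 CPM, covering counting error only. Named genes were all members, Mtdh, and the 3 genes of each further list with the smallest p, 1 of which is not reported here. Others, such as Gm13910, were chosen after their values were seen. The members and lists were chosen with earlier results of these data known. Software was DESeq2 1.42.0, limma 3.58.1 and edgeR 4.0.16 under R 4.3.3, with Python 3.11.15.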

Additional observations from a re-analysis of the deposited data

How the results depend on the processing

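No member was called under any of the 12 alternatives, and the lowest adjusted p of a member in any of them was 0.41 (Decr2, with all 6 columns, which counts 1 control library 2 times). The count of genes past the threshold, 1 in the main comparison, was 3 without a low-count filter and 19 with DESeq2, and ran from 1 to 6 with each library left out. The members in which every knockout library exceeded every control library, 4 of 32, ran from 4 to 21 with each library left out. Their count was 3 with upper-quartile scaling. The medians over all, mitochondrial and peroxisomal members moved by less than the spread between libraries. Of the members, 22 kept their sign in all 12 alternatives. For the other 10, the range of the log2 fold change with each library left out included both signs: -0.0833 to 0.25 for Acsl1, -0.0804 to 0.27 for Slc22a5, -0.0047 to 0.29 for Cpt1a, -0.054 to 0.16 for Cpt2, -0.0446 to 0.13 for Acadm, -0.0402 to 0.16 for Hadhb, -0.0437 to 0.0378 for Etfa, -0.11 to 0.16 for Etfdh, -0.0448 to 0.38 for Ehhadh and -0.0769 to 0.20 for Creb3l3. Etfdh was also at -0.0004 with upper-quartile scaling. The cause of these changes was not tested. Leaving out a control library left 1, which was assumed to vary like the knockout libraries.

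Replicate numbers 1 and 3 occur in both groups, but the labels tie them to nothing shared. The correlations of deviations across genes were 0.06 and 0.155 for same-numbered libraries and -0.155 to 0.11 for libraries with different numbers. Each correlation with control replicate 3 was that with control replicate 1 with its sign reversed, such as 0.155 and -0.155 for knockout replicate 3. The values for same and different numbers are therefore not independent, and they cannot show whether the numbers pair libraries. With the replicate block, which leaves 1 residual degree of freedom, 0 genes passed by edgeR, Mtdh with an adjusted p of 0.0517, and Acadm was at -0.0005, Etfa at 0.0342 and Etfdh at -0.0868. The block moved Vnn1 to 0.88 and Crat to 0.33. Summing near-identical copies, an alternative chosen after seeing the data, changed no sign among Hadhb, Acaa1a, Slc22a5 and Etfa. The lowest level of a member in any library was 10.3 CPM (Vnn1 in control replicate 1), above the level of 3 counts.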
